A study of Homo sapiens with 12 samples.

Results

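The genes described here are 33 known targets of p53, taken by name from the table of 45372 gene rows and followed across all 12 libraries of a blue light experiment on HaCaT keratinocytes. Each of the 33 names matched 1 row, and all 33 were among the 12878 genes with enough counts to test. The question was whether irradiation raised these genes together, as an active p53 response would.

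HaCaT is an immortalized line of human skin keratinocytes that is known to carry mutant p53. The labels give its genotype as wild-type, which is no statement that p53 is intact. Whether p53 signalling works in these cells was not measured, and the counts show only the levels of its target genes. The irradiated groups were blue_3, blue_14 and blue_42, whose cells had received 3, 14 or 42 sessions of 408 nm light, and the controls were dark_3, dark_14 and dark_42, HaCaT cells of the same session numbers that the labels call controls. How the controls were handled during a session is not stated. A session delivered 50 J per cm2 at 4.6 mW per cm2 to cells in buffered saline, 3 times weekly, a dose the submitters chose to kill 50% of these cells. Each group had 2 libraries, lettered a and b. The labels do not tell whether a and b are separate cultures, so the p-values below measure the spread between libraries, which may be technical.

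Library totals were 2073160 to 8183941 counts, and the members took 0.121% to 0.133% of them. All 12 basal keratinocyte markers were detected in every group, summing to 4310 to 6000 CPM, which are counts scaled to a common library size. Leukocyte markers summed to 1.44 to 6.63 CPM, fibroblast markers to 4.28 to 15.2 CPM, endothelial markers to 0.634 to 6.21 CPM and melanocyte markers to 10.6 to 16.4 CPM. Neuronal markers summed to 223 to 255 CPM in blue_3 against 188 to 190 in dark_3, to 124 to 143 in blue_14 against 176 to 200 in dark_14, and to 99.6 to 124 in blue_42 against 85.3 to 126 in dark_42. SYT1 and CELF4, both neuronal markers, were the 2 genes called in blue_3 against dark_3. SYT1 had 6.76 and 11.7 CPM in blue_3 against 2.06 and 2.16 in dark_3. CELF4 had 2.52 and 3.24 CPM in blue_3 against 0.159 and 0.288 in dark_3, where both values stand for fewer than 3 counts. Of the 12 fits without 1 library, 5 kept the call of SYT1 and 3 that of CELF4. All 11 tested neuronal markers were above 0 in blue_3 against dark_3 (52.4% of all genes), with a median log2 difference of 1.78 against 0.012 for all genes and both blue_3 libraries above both dark_3 libraries for each of the 11. In blue_14 against dark_14, 1 of 11 was above 0, with a median of -0.58, and in blue_42 against dark_42, 7 of 11 were, with a median of 0.17. Fibroblast markers moved in a similar way, although none of the 3 tested was called for light. Of these, 3 were above 0 after 3 irradiations (median 1.97), 0 after 14 (median -2.05) and 1 after 42 (median -0.44). The shares of all genes above 0 were 52.4%, 48.6% and 49.5%. The difference of the light effects, 14 minus 3 irradiations, was called for 4 of 11 neuronal markers (SYT1, CELF4, NEFM and MAP2), all below 0, against 0.0388% of all genes, and that of 42 minus 3 for SYT1. What these transcripts contribute to the results below was not tested. CPM is a share of each library, so less of a transcript per cell and fewer cells that make it cannot be told apart.

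The p53 protein is a transcription factor that is held low by the ubiquitin ligase MDM2 and stabilized by DNA damage and other stress. It binds DNA as a tetramer at response elements and raises genes that stop the cell cycle, repair DNA, change metabolism or start apoptosis, together with MDM2 itself, which closes a feedback loop. In epidermis the relative p63 is a master regulator of basal keratinocytes and binds similar DNA elements, and several of the target genes also respond to factors such as ATF4.

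Promoter sequence is shown for the members whose start site holds a close match to the p53 response element, to show how the element appears at these genes. RefSeq promoter windows on GRCh38.p14, each running from 250 bases before to 50 bases after an annotated start, were found for 26 of the 33 members. Where a gene had more than 1 window, the one with the best match was kept, for members and all other symbols alike. The element searched was the published p53 consensus, 2 abutting decamers of 10 bases whose pattern reads the same on both strands. In 4 of the 26 members the best match had at most 2 mismatches (15.4%), against 0.82% of all 27305 gene symbols with a window. In 10 of the 26 members it had at most 3 (38.5%), against 6.39% of all symbols. The members are known p53 targets, so these shares describe how the list was made. Capitals below mark the bases that fit the consensus, and lower case marks mismatches.

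The matches with at most 2 mismatches belonged to DDB2, a DNA damage sensor (1 mismatch), AEN, an apoptosis-enhancing nuclease, FAS, a death receptor, and MDM2, the ligase that degrades p53.
DDB2: AAGCTgGTTTGAACAAGCCC
AEN: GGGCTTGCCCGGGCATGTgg
FAS: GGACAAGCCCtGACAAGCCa
MDM2: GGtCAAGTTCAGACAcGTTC

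Those with 3 mismatches belonged to PMAIP1, which encodes the BH3-only protein NOXA, GDF15, a secreted stress factor, FDXR, a mitochondrial reductase, RPS27L, a ribosomal protein paralogue, SESN1, a sestrin, and XPC, a DNA damage recognition factor.
PMAIP1: GAGCgTGTCCGGGCAgGTCg
GDF15: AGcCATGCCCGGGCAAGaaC
FDXR: GGGCAgGagCGGGCTTGCCC
RPS27L: GGcCTAGagCAGACAAGCCC
SESN1: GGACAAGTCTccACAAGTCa
XPC: GAAtTTGCCCAGACAAGCaa

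A pair of whole windows is printed because their genes are set against each other further on, FAS as a member called between the series of cultures and MDM2 as one called in no comparison. In both, capitals mark the best match. The FAS window spans chr10:88991181-88991480, plus strand, and its match starts 122 bases before the start site of that window. The MDM2 window spans chr12:68808767-68809066, plus strand, and its match starts 94 bases before the start site of that window. By the gene positions given further on, FAS begins at chr10:88990582 and MDM2 at chr12:68808176, so both windows lie inside their genes.
FAS: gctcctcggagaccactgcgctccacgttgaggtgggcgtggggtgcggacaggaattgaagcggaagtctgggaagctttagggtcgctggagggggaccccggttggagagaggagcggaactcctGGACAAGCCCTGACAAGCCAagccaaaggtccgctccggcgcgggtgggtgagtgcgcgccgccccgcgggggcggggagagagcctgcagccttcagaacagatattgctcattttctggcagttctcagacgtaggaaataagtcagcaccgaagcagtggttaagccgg
MDM2: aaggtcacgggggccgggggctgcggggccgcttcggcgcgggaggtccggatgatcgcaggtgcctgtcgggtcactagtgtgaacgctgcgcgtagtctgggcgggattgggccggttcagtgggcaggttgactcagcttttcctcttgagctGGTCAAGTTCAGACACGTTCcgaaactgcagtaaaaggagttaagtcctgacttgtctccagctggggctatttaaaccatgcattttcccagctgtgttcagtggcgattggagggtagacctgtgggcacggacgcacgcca

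Whether the p53 targets rose together under blue light is described below by medians and counts, and was not tested for the list as a whole. No member was called, that is, none reached an adjusted p under 0.05 (edgeR's quasi-likelihood test with Benjamini-Hochberg adjustment over 12878 genes), in blue_3 against dark_3, in blue_14 against dark_14 or in blue_42 against dark_42. Over all tested genes the share called was 0.0155% after 3 irradiations, 0% after 14 and 1.23% after 42, so a count of 0 among 33 genes does not set the members apart from the whole table. At an unadjusted p under 0.05, 3 members passed after 3 irradiations (6.92% of all genes), 0 after 14 (5.89%) and 3 after 42 (13.3%). DESeq2 called 0 members in each of the 3 comparisons as well.

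The log2 differences of the 33 members, irradiated minus dark, lay between -0.32 and 0.78 after 3 irradiations, with a median of -0.001 against 0.012 for all genes. After 14 irradiations they lay between -0.63 and 0.64, with a median of 0 against -0.007. After 42 irradiations they lay between -0.29 and 0.53, with a median of 0.086 against -0.003. Members above 0 numbered 16, 17 and 22 of 33 after 3, 14 and 42 irradiations, against 52.4%, 48.6% and 49.5% of all genes. The members' own shares above 0 were 48.5%, 51.5% and 66.7%, the last of them above that of all genes by the most. The 2 irradiated libraries stood clear of the 2 dark libraries for 8 members on the higher and 5 on the lower side after 3 irradiations, against 23.7% and 19.9% of all genes (43.6% on both sides together). After 14 irradiations the counts were 3 and 7, against 16.6% on each side (33.2%), and after 42 they were 6 and 4, against 21.3% and 20.9% (42.2%).

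The width of the 95% intervals shows what size of change these libraries could have missed. The interval of the log2 difference lay within 1 on either side of 0, that is, within a doubling or halving, for 31 of 33 members after 3 irradiations, 29 after 14 and 30 after 42. GDF15 and TP53INP1, both low in counts, lay outside in all 3 comparisons. BBC3 also lay outside after 42 irradiations, with an interval of 0.04 to 1.02. TP53I3 and PLK3 lay outside after 14.

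**Figure D1:**
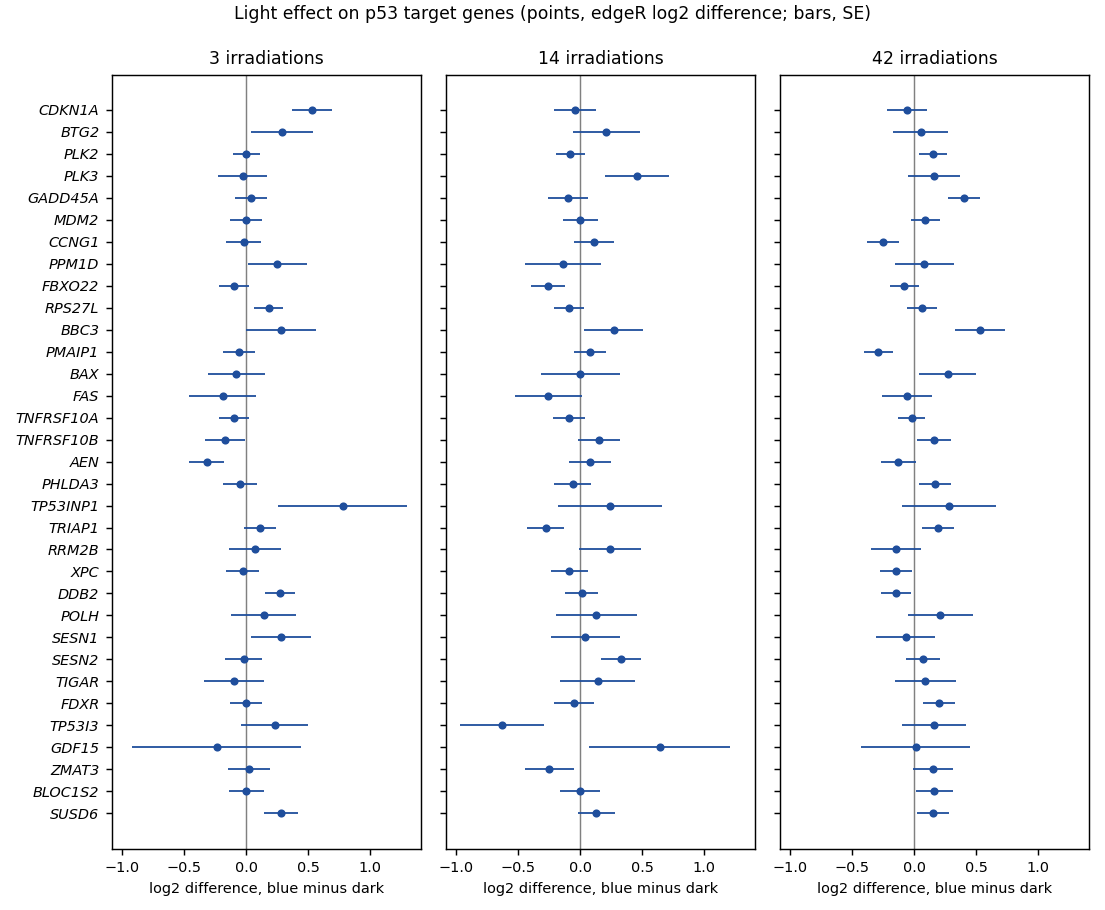
Light effect on each of the 33 p53 target genes after 3, 14 and 42 irradiations. Points give the log2 difference of blue minus dark libraries from edgeR, bars its standard error, and genes run down the page by role. Points scatter on both sides of 0 in each panel, from -0.32 to 0.78, from -0.63 to 0.64 and from -0.29 to 0.53, and none was called.

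After 3 irradiations the member with the smallest p was CDKN1A, which encodes p21, the inhibitor of cyclin-dependent kinases that carries out much of the p53 arrest. CDKN1A (ENSG00000124762, chr6:36676460-36687339, plus strand) had 65.4 and 62.2 CPM in blue_3 against 44.4 and 44.2 in dark_3, 82.2 and 111 CPM in blue_14 against 116 and 82.5 in dark_14, and 61.6 and 76.7 CPM in blue_42 against 68.4 and 75.4 in dark_42. Both blue_3 libraries were above both dark_3 libraries, while the groups overlapped after 14 and 42 irradiations. The log2 difference was 0.53 (SE 0.16, 95% interval 0.14 to 0.92) after 3 irradiations, which missed the threshold with an adjusted p of 0.443. It was -0.58 (SE 0.23) in the test of the 42-irradiation effect minus the 3-irradiation effect, with an adjusted p of 0.333. The dark_3 libraries, at 44.4 and 44.2 CPM, were the lowest of all 12 for this gene.

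AEN (chr15:88621296-88632282, plus strand) came next after 3 irradiations. It had 29 and 27.2 CPM in blue_3 against 35.5 and 35 in dark_3, 25.6 and 21.5 CPM in blue_14 against 21.8 and 23.1 in dark_14, and 23.5 and 24.9 CPM in blue_42 against 29.2 and 23.8 in dark_42. The direction was opposite to that of an induction, with a log2 difference of -0.32 (SE 0.14) and an adjusted p of 0.645. DDB2, which recognizes ultraviolet damage (chr11:47214465-47239240, plus strand), had 82.3 and 91.5 CPM in blue_3 against 71.5 and 72.3 in dark_3, 90.2 and 84.5 CPM in blue_14 against 92.8 and 82 in dark_14, and 64.8 and 77.8 CPM in blue_42 against 74.5 and 83.9 in dark_42. Its log2 difference was 0.27 (SE 0.12, adjusted p 0.691) after 3 irradiations, and at 42 irradiations its groups overlapped.

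After 14 irradiations the 3 smallest p-values belonged to SESN2, TRIAP1 and FBXO22, and none was under an unadjusted 0.05. SESN2, a stress-induced inhibitor of mTORC1 signalling, had 27 and 25.4 CPM in blue_3 against 26.6 and 26.6 in dark_3, 37.3 and 29.1 CPM in blue_14 against 29.8 and 24.9 in dark_14, and 31.2 and 27.1 CPM in blue_42 against 28.6 and 27.1 in dark_42. The blue_14 libraries overlapped the dark_14 libraries, with a log2 difference of 0.33 (SE 0.16, adjusted p 0.834). TRIAP1, a small inhibitor of apoptosis that p53 induces, had a log2 difference of -0.28 (SE 0.15, adjusted p 0.837). FBXO22, an F-box protein that p53 induces, had one of -0.26 (SE 0.14, adjusted p 0.837). For TRIAP1 and FBXO22 both blue_14 libraries were below both dark_14 libraries. The blue_14 libraries had the lowest depth, at 3517401 and 2073160 counts.

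After 42 irradiations GADD45A, a stress sensor that inhibits CDK1, had the smallest p. GADD45A (chr1:67685061-67688338, plus strand) had 45.2 and 49.4 CPM in blue_3 against 46.6 and 45.5 in dark_3, 41.1 and 32.9 CPM in blue_14 against 38.4 and 41.9 in dark_14, and 41.8 and 46.9 CPM in blue_42 against 37.1 and 30.3 in dark_42. The log2 difference was 0.40 (SE 0.13, 95% interval 0.08 to 0.72) with an adjusted p of 0.166. Dark_42 had the lowest mean of the 6 groups, while blue_42 lay within the range of the other groups. BBC3 followed at 0.53 (SE 0.20, adjusted p 0.242), and PMAIP1 at -0.29 (SE 0.12, adjusted p 0.283). BBC3 and PMAIP1 encode PUMA and NOXA, the BH3-only activators of apoptosis that p53 induces, and their differences had opposite signs.

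Within a role the differences mostly lay on both sides of 0. Among the 10 apoptosis genes the log2 differences ran from -0.32 for AEN to 0.78 for TP53INP1 after 3 irradiations, from -0.28 for TRIAP1 to 0.27 for BBC3 after 14, and from -0.29 for PMAIP1 to 0.53 for BBC3 after 42. Among the 5 arrest genes they ran from -0.03 for PLK3 to 0.53 for CDKN1A, from -0.10 for GADD45A to 0.46 for PLK3, and from -0.06 for CDKN1A to 0.40 for GADD45A. Among the 4 repair genes they ran from -0.03 for XPC to 0.27 for DDB2 after 3 irradiations, from -0.09 for XPC to 0.24 for RRM2B after 14, and from -0.15 for RRM2B to 0.21 for POLH after 42, when only POLH was above 0 and the median was -0.15. The 4 targets outside these roles (GDF15, ZMAT3, BLOC1S2 and SUSD6) were all above 0 after 42 irradiations, by 0.01 to 0.16. TP53INP1, which promotes p53-dependent apoptosis, had the highest estimate of any member after 3 irradiations on 1.94 to 2.91 CPM in blue_3 and 1.11 to 1.73 in dark_3, and its SE was 0.52. In all 3 comparisons, which share no library, 5 members (BBC3, BTG2, POLH, SUSD6 and TP53INP1) were above 0 and 4 (FAS, FBXO22, TNFRSF10A and XPC) below 0. The same shares over all genes were not counted, so these counts do not set the members apart from other genes.

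MDM2, the most direct feedback target, stayed within 31.6 to 38.8 CPM in all 12 libraries. MDM2 (chr12:68808176-68850686, plus strand) had 35.6 and 32.1 CPM in blue_3 against 31.6 and 36.2 in dark_3, 37.9 and 34.9 CPM in blue_14 against 35.8 and 37.2 in dark_14, and 38 and 38.8 CPM in blue_42 against 35.1 and 36.9 in dark_42. The highest library was 1.23 times the lowest, the smallest such range among the 19 members that were never called. The groups overlapped after 3 and 14 irradiations, and after 42 both blue libraries were above both dark ones. Its close promoter match is printed above.

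Averaged over the 3 irradiation numbers, again 0 members were called, against 0.0699% of all genes. The smallest p-values were those of BBC3 (0.36, SE 0.14, adjusted p 0.531) and SUSD6, a membrane protein that p53 induces (0.19, SE 0.08, adjusted p 0.577). At an unadjusted p under 0.05, 2 members passed, against 8.29% of all genes. The average was above 0 in 24 of 33 members, against 51.3% of all genes, with a median of 0.048 against 0.004. No count over the list was tested, because its members are not independent. The tests of the light effects against each other called 0 members for 42 minus 3 irradiations (0.435% of all genes), 0 for 42 minus 14 (0.0544%) and 0 for 14 minus 3 (0.0388%). At an unadjusted p under 0.05, 2 members passed for 42 minus 3 (11.3% of all genes), 2 for 42 minus 14 (8.04%) and 1 for 14 minus 3 (8%).

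The genes of the p53 family and its regulators were given the same test, and 0 of 24 were called after 3, 14 or 42 irradiations. TP63, which encodes p63, had 48.9 and 36.1 CPM in blue_3 against 48.2 and 41.9 in dark_3, 77.6 and 77.8 CPM in blue_14 against 52.7 and 53.1 in dark_14, and 62.9 and 56.7 CPM in blue_42 against 59 and 53.1 in dark_42. Its log2 difference after 14 irradiations was 0.55 (SE 0.15, adjusted p 0.709). TP73, a further relative, stayed between 2.58 and 9.73 CPM, and MDM4, a partner of MDM2 that blocks p53, between 34.3 and 52.9 CPM, and neither was called.

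Among 41 tested p53 targets outside the list of 33, the calls for light were SFN and EI24, both higher after 42 irradiations (0.839% of all genes were higher and 0.388% lower). SFN encodes 14-3-3 sigma, which holds cells at G2, and had 1440 and 1430 CPM in blue_3 against 1430 and 1410 in dark_3, 1480 and 1700 CPM in blue_14 against 1400 and 1480 in dark_14, and 1220 and 1300 CPM in blue_42 against 930 and 745 in dark_42. Its log2 difference was 0.58 (SE 0.12, adjusted p 0.017). EI24, an endoplasmic reticulum protein induced by p53, had 307 and 236 CPM in blue_3 against 314 and 299 in dark_3, 286 and 305 CPM in blue_14 against 245 and 262 in dark_14, and 278 and 255 CPM in blue_42 against 187 and 166 in dark_42. Its log2 difference was 0.59 (SE 0.12, adjusted p 0.0187). For both genes the dark_42 libraries were the lowest of all 12, and no blue_42 library exceeded the highest blue_3 library. Dark_42 was below dark_3 by 0.76 for SFN and 0.79 for EI24 on the log2 scale, with adjusted p-values of 0.000212 and 0.000188. Leaving out dark_42 b, blue_42 a or blue_42 b ended the call of both, with adjusted p-values of up to 0.207, and the call of SFN was also lost with only the libraries compared (adjusted p 0.0685).

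Cell cycle genes that p21 lowers through the DREAM complex are a readout downstream of p53. Of 40 such genes 0 were called lower after 3, 14 or 42 irradiations. The CDK-binding subunit CKS1B was the 1 called higher, in blue_42 against dark_42 (0.839% of all genes). CKS1B had 252 and 194 CPM in blue_3 against 222 and 211 in dark_3, 207 and 267 CPM in blue_14 against 204 and 219 in dark_14, and 193 and 195 CPM in blue_42 against 134 and 116 in dark_42, a log2 difference of 0.64 (SE 0.13, adjusted p 0.0196) that leaving out dark_42 b, blue_42 a or blue_42 b ended (adjusted p of up to 0.19). For CKS1B the dark_42 libraries were the lowest of all 12, and both blue_42 libraries were below both dark_3 libraries. The list as a whole lay below the other genes after 3 and 42 irradiations, without a call on the lower side. After 3 irradiations 8 of 40 were above 0 (52.4% of all genes), with a median of -0.075 against 0.012, and both blue libraries were below both dark libraries for 17 genes (19.9% of all genes) and above them for 1 (23.7%). After 14 irradiations 19 of 40 were above 0 (48.6%), with a median of -0.013 against -0.007, and the libraries were clear of each other for 3 genes on the lower and 5 on the higher side (16.6% each). After 42 irradiations 15 of 40 were above 0 (49.5%), with a median of -0.089 against -0.003, and the counts were 16 lower (20.9%) and 7 higher (21.3%). The average light effect was above 0 for 12 of 40 (51.3%), with a median of -0.047 against 0.004. Stress genes driven by ATF4 and CHOP, which can raise several p53 targets without p53, had 0 of 17 called after 3, 14 or 42 irradiations. Of the 17, 6 were above 0 after 3 irradiations (52.4% of all genes), 12 after 14 (48.6%) and 12 after 42 (49.5%). The average light effect was above 0 for 15 of them (51.3%), with a median of 0.052 against 0.004. ATF3 was called lower for 42 minus 3 irradiations (0.435% of all genes in either direction), as described further on.

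A minority of the members differed between the series of cultures, in dark cells, irradiated cells or both. Libraries of the 3, 14 and 42 sessions carry separate runs of library numbers, so time in culture, passage number and library preparation cannot be told apart in what follows. Of the 33 members, 14 (42.4%) were called in at least 1 of the 6 comparisons between series, against 29.5% of all genes. In the later series 8 of them were higher (16.1% of all genes were so in at least 1) and 6 lower (15.7%). The other 19 were called in none.

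Markers of other cell types moved between the series too. In dark_14 against dark_3, 10 of 11 tested neuronal markers were called higher (8.11% of all genes), with a median log2 difference of 2.49. By contrast NEFL, the most abundant of the 11, had 58.7 and 94.7 CPM in dark_14 against 146 and 146 in dark_3. SYT1 had 23.5 and 17.8 CPM in dark_14 against 2.06 and 2.16 in dark_3. Neuronal markers were called lower for 8 of 11 in dark_42 against dark_14 (median -2.64, 5.23% of all genes). They were so for 8 of 11 in blue_42 against blue_3 (median -2.00, 3.39%) and for 1 of 11 in blue_14 against blue_3 (2.6%). In dark_42 against dark_3, 1 was higher (9.47%) and 2 lower (8.26%). TUBB3, a defining neuronal tubulin, was at 0 in all libraries of the 3 and 14 series. All 3 tested fibroblast markers were called higher in dark_14 against dark_3 (8.11%). The list's 9 genes summed to 14.6 to 15.2 CPM in dark_14 against 4.28 to 5.04 in dark_3. In dark_42 against dark_14 and in blue_42 against blue_3, 2 of 3 were lower (5.23% and 3.39%). COL1A2, a defining fibroblast collagen, was at 0 in each group but blue_14. The 1 tested endothelial marker was called higher in dark_14 and dark_42 against dark_3 (8.11% and 9.47%) and in blue_42 against blue_3 (4.4%). Of 2 tested leukocyte markers, 1 was called higher in dark_42 against dark_3 (9.47%). The part of these transcripts in the members' differences was not tested.

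In dark_14 against dark_3, 6 members were higher (8.11% of all genes) and 2 lower (4.61%). In dark_42 against dark_3, 7 were higher (9.47%) and 5 lower (8.26%). In dark_42 against dark_14 only TRIAP1 was called, and it was lower (7.04% in either direction). In the irradiated cells, blue_14 against blue_3 had 5 members higher (3.62%) and 2 lower (2.6%), and blue_42 against blue_3 had 5 higher (4.4%) and 2 lower (3.39%). In blue_42 against blue_14, 0 were called (0.241%), with 2 at an unadjusted p under 0.05 (12.5%) and 0 by DESeq2. The counts varied with single libraries. Alternatives also added calls, such as BTG2 in dark_42 against dark_3 without dark_3 a. With only the libraries compared, TP53INP1 was added in blue_14 against blue_3. The 8 calls of dark_14 against dark_3 became 3 without dark_3 a or dark_14 a and 4 without dark_3 b. The 12 of dark_42 against dark_3 became 5 without dark_3 b, 6 without dark_42 b and 7 without dark_3 a or with DESeq2. The 7 of blue_14 against blue_3 became 2 without blue_3 b or blue_14 b, and 4 without blue_3 a or with only the libraries compared. The 7 of blue_42 against blue_3 became 4 without blue_3 b or blue_42 b. The 1 of dark_42 against dark_14 became 2 without dark_14 b or with no filter, CDKN1A being added. The members that held in every such fit are named below.

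**Figure D2:**
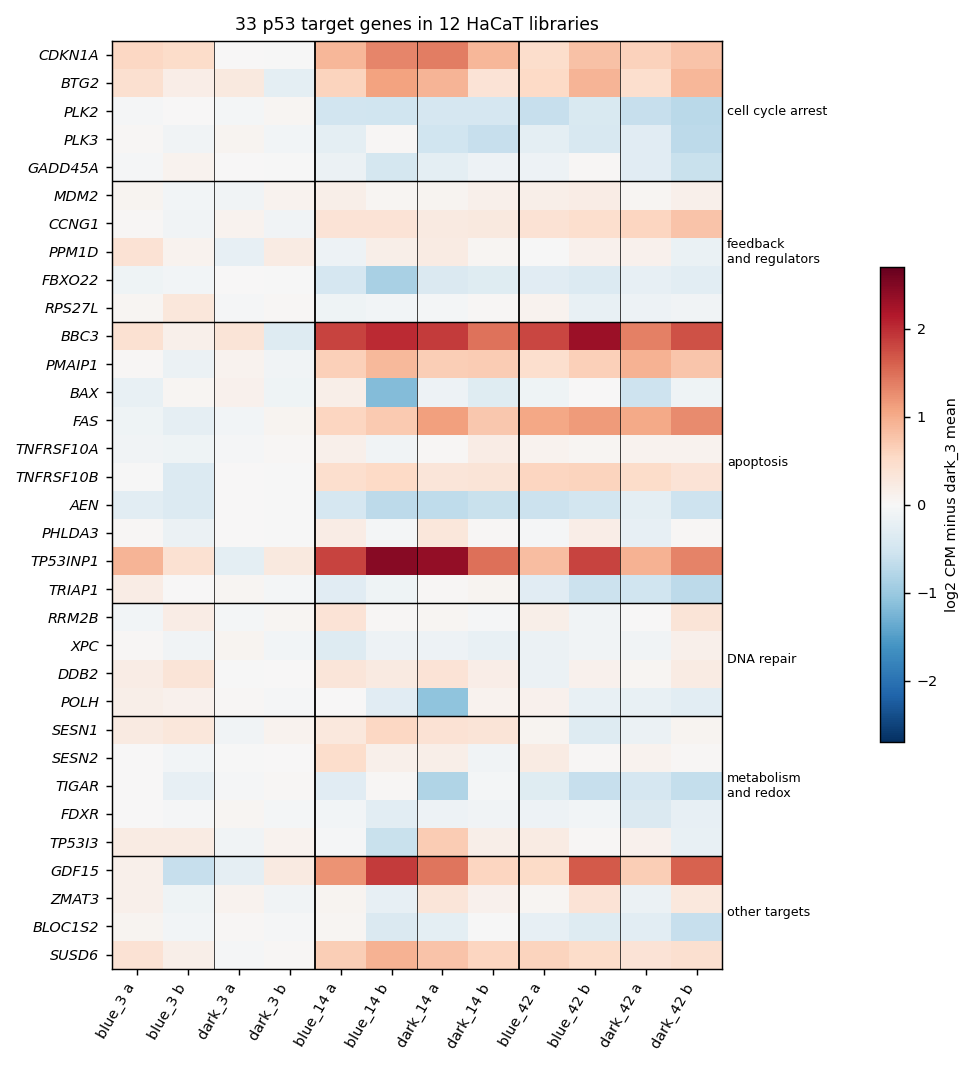
Level of the 33 p53 target genes in each of the 12 libraries, as log2 CPM minus the mean of the dark_3 libraries (colour scale), with genes grouped by role and libraries ordered by irradiation number. The rows of BBC3, FAS and PMAIP1 are red in both blue and dark libraries of the 14 and 42 series, while the MDM2 row is near 0 throughout.

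Among the called members the largest differences from the 3 series were those of TP53INP1 in dark_14 and of BBC3 in dark_42, blue_14 and blue_42, and both genes promote apoptosis. BBC3 (chr19:47220822-47232766, minus strand) had 9.54 and 7.77 CPM in blue_3 against 9.04 and 5.47 in dark_3, 25.9 and 29.6 CPM in blue_14 against 26.9 and 19.9 in dark_14, and 25.3 and 35.9 CPM in blue_42 against 18.6 and 24.1 in dark_42. Every library of the 14 and 42 series was above every library of the 3 series. Separate libraries were common between series. Over all genes, libraries did not overlap, in either direction, for 62.8% in dark_14 and 62.4% in dark_42 against dark_3. The shares were 51.2% in blue_14 and 52.2% in blue_42 against blue_3. The share of genes with all later libraries clear of the whole 3 series was not counted. The log2 difference was 1.66 (SE 0.26) in dark_14 against dark_3 and 1.56 (SE 0.25) in dark_42 against dark_3, with adjusted p-values of 0.000661 and 0.000314. It was 1.65 (SE 0.26) in blue_14 against blue_3 and 1.81 (SE 0.23) in blue_42 against blue_3. BBC3 kept its call in these 4 comparisons when any 1 of the 12 libraries was left out.

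PMAIP1 (chr18:59899948-59904306, plus strand) had 70.5 and 61.5 CPM in blue_3 against 73.7 and 64.4 in dark_3, 108 and 127 CPM in blue_14 against 109 and 112 in dark_14, and 94.3 and 108 CPM in blue_42 against 132 and 116 in dark_42. Here too the libraries of the later series did not overlap those of the 3 series. It was higher by 0.68 (SE 0.13) and 0.85 (SE 0.12) on the log2 scale in dark_14 and dark_42 against dark_3, and by 0.82 (SE 0.13) and 0.62 (SE 0.13) in blue_14 and blue_42 against blue_3. All 4 differences were called, and those of dark_42 against dark_3 and blue_14 against blue_3 held when any library was left out. That of dark_14 was lost without dark_3 b, and that of blue_42 without blue_3 b or blue_42 b (adjusted p of up to 0.103).

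FAS (chr10:88990582-89015785, plus strand) and TNFRSF10B encode death receptors. FAS had 4.5 and 4.05 CPM in blue_3 against 4.6 and 5.19 in dark_3, 7.47 and 8.12 CPM in blue_14 against 10.9 and 8.3 in dark_14, and 10.3 and 11.3 CPM in blue_42 against 10.2 and 12.4 in dark_42. The 3 series was lowest again, and the difference of 1.20 (SE 0.23) in dark_42 against dark_3 and of 1.33 (SE 0.23) in blue_42 against blue_3 held when any library was left out. In dark_14 against dark_3 it was 0.92 (SE 0.24, adjusted p 0.0182), a call lost without dark_3 a, dark_3 b or dark_14 a and with DESeq2 (adjusted p of up to 0.175). TNFRSF10B (chr8:23020133-23069179, minus strand) had 18.1 and 14.1 CPM in blue_3 against 18.4 and 18.1 in dark_3, 25 and 26.7 CPM in blue_14 against 22.9 and 23.3 in dark_14, and 27.6 and 27.9 CPM in blue_42 against 25.9 and 23.8 in dark_42. It was called in blue_14 and blue_42 against blue_3 at 0.66 (SE 0.17) and 0.78 (SE 0.15), and in dark_42 against dark_3 at 0.44 (SE 0.15). The blue_42 call was lost without blue_3 b, the blue_14 call without blue_3 b, blue_14 a or blue_14 b, and the dark_42 call in 8 of the 12 fits without 1 library. DESeq2 and a fit of only the libraries compared also ended the blue_14 call (adjusted p 0.0665 and 0.0743) and the dark_42 call (0.195 and 0.0507), and no filter ended the dark_42 call (0.075). TNFRSF10A, a receptor for the same ligand, was called in none, and ranged from 58.6 to 72.4 CPM. Exons of FAS, TNFRSF10A and TNFRSF10B overlap an antisense gene that also has counts. Whether counting used strand is unknown from the sources at hand, so the values of these genes are uncertain.

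TP53INP1 had 2.91 and 1.94 CPM in blue_3 against 1.11 and 1.73 in dark_3, 5.75 and 9.07 CPM in blue_14 against 8.59 and 4.47 in dark_14, and 2.71 and 5.71 CPM in blue_42 against 2.95 and 4.03 in dark_42, and was called in dark_14 against dark_3 at 2.06 (SE 0.47, adjusted p 0.00788) on few counts. That call was lost without dark_3 a or dark_14 a. BAX, the effector that permeabilizes mitochondria, ranged from 9.07 to 23.3 CPM and was called in none.

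The other apoptosis calls went the opposite way. AEN, whose values are given above, was lower by 0.64 (SE 0.14) in dark_14 and by 0.41 (SE 0.14) in dark_42 against dark_3, with adjusted p-values of 0.00709 and 0.0407. Leaving out dark_3 a or dark_3 b ended both calls, dark_14 a the first and dark_42 b the second, and neither DESeq2 nor a fit of only the libraries compared called the second (adjusted p 0.152 and 0.0516). TRIAP1 (chr12:120443961-120446412, minus strand) had 61.1 and 53.4 CPM in blue_3 against 55 and 51.6 in dark_3, 42.8 and 49.2 CPM in blue_14 against 54.4 and 56.3 in dark_14, and 43.1 and 35.7 CPM in blue_42 against 36.6 and 32.5 in dark_42. It was lower in dark_42 than in dark_3 (-0.62, SE 0.13) and dark_14 (-0.68, SE 0.13), and lower in blue_42 than in blue_3 (-0.54, SE 0.13). The 2 dark calls held when any library was left out, and the blue call was lost without blue_3 a or blue_42 b. Both libraries of each 42 group were below those of the 3 group of the same light condition. Of the 10 apoptosis genes 5 were higher and 2 lower in at least 1 comparison between series, against 16.1% and 15.7% of all genes, and no count over a role was tested.

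**Figure D3:**
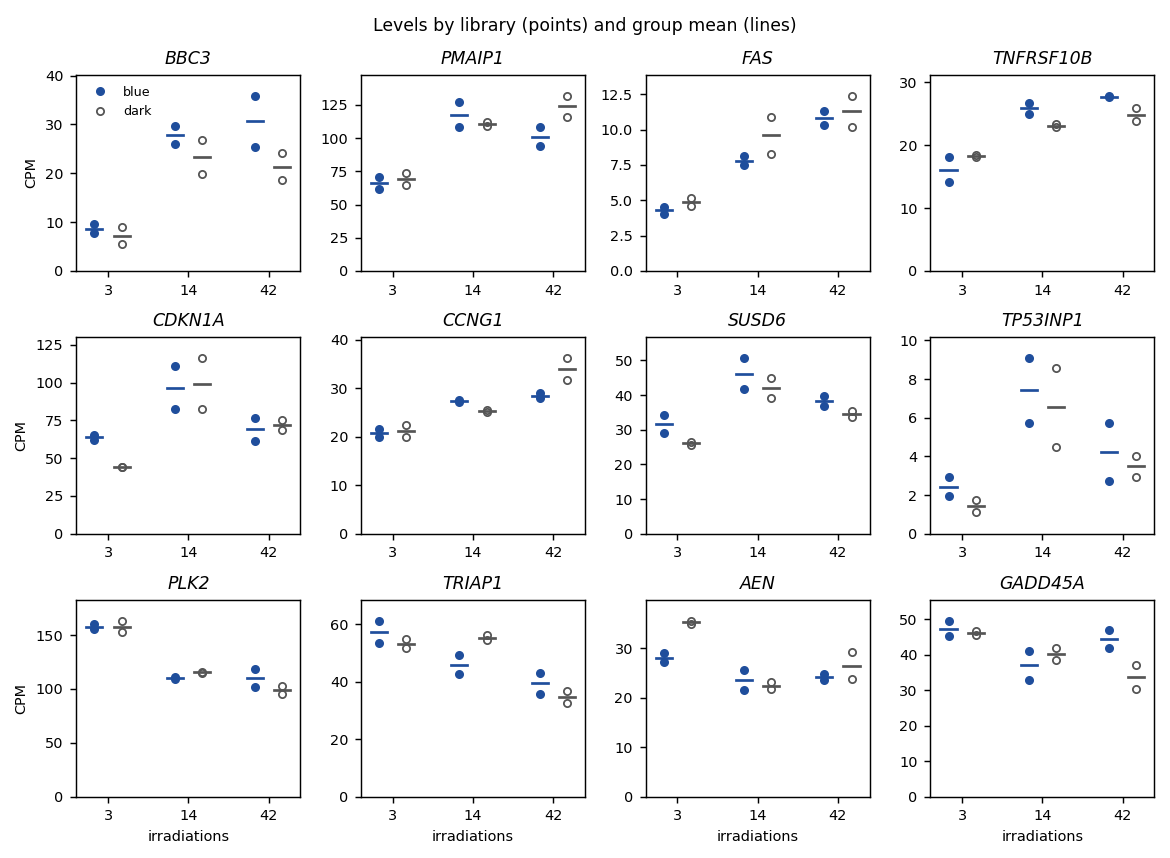
CPM of 12 members by irradiation number, with irradiated libraries as filled and dark libraries as open circles, and lines at the group means. BBC3, PMAIP1 and FAS are lowest in the 3 series in both conditions, PLK2 is highest there, and CDKN1A is lowest in dark_3 at 44.4 and 44.2 CPM.

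Among the arrest genes CDKN1A, whose values are given above, was higher by 1.14 (SE 0.16, adjusted p 0.000288) in dark_14 and by 0.70 (SE 0.16, adjusted p 0.00615) in dark_42 against dark_3. In the irradiated cells it was higher by 0.58 (SE 0.17, adjusted p 0.0464) in blue_14 against blue_3, and in blue_42 against blue_3 it was not called. The dark_14 call held when any library was left out, the dark_42 call was lost without dark_3 a, dark_3 b or dark_42 b, and the blue_14 call held in 6 of the 12 fits without 1 library. The blue_14 call was also lost with estimation that was not robust and with only the libraries compared (adjusted p 0.0523 and 0.0526). PLK2, a polo-like kinase with a role in checkpoint recovery, went the other way. PLK2 (chr5:58453982-58460260, minus strand) had 156 and 160 CPM in blue_3 against 153 and 163 in dark_3, 111 and 109 CPM in blue_14 against 115 and 116 in dark_14, and 102 and 119 CPM in blue_42 against 103 and 95.7 in dark_42. All later libraries were below the 4 libraries of the 3 series. The log2 differences were -0.45 (SE 0.11) and -0.67 (SE 0.11) in dark_14 and dark_42, and -0.53 (SE 0.11) and -0.52 (SE 0.11) in blue_14 and blue_42. The dark_42 call held when any library was left out, the dark_14 call was lost without dark_3 a, dark_3 b or dark_14 a, the blue_14 call without blue_3 b or blue_14 b, and the blue_42 call without blue_42 a. GADD45A was lower by 0.45 (SE 0.14, adjusted p 0.0255) in dark_42 against dark_3, a call lost without dark_3 a, dark_3 b or dark_42 b and with DESeq2. BTG2, an antiproliferative cofactor, ranged from 13.4 to 34.9 CPM, and PLK3 from 7.02 to 12.4 CPM, without a call in the fit reported here.

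Of the feedback genes, CCNG1, which encodes cyclin G1, a partner of MDM2, had 21.7 and 19.9 CPM in blue_3 against 22.5 and 19.9 in dark_3, 27.6 and 27.2 CPM in blue_14 against 25.2 and 25.6 in dark_14, and 28 and 29 CPM in blue_42 against 31.8 and 36.2 in dark_42. It was higher in dark_42 than in dark_3 (0.68, SE 0.13, adjusted p 0.00164) and in blue_42 than in blue_3 (0.45, SE 0.14, adjusted p 0.0464). The dark call was lost without dark_3 b, and the blue call held in 4 of the 12 fits without 1 library and was lost with DESeq2 and with no filter (adjusted p 0.233 and 0.0634). FBXO22 had 66.6 and 68.6 CPM in blue_3 against 73.1 and 71.4 in dark_3, 52.9 and 39.2 CPM in blue_14 against 55 and 57.2 in dark_14, and 58.2 and 55.7 CPM in blue_42 against 61.7 and 58.9 in dark_42. It was called only in blue_14 against blue_3 (-0.53, SE 0.14, adjusted p 0.026), a call lost without blue_3 a, blue_3 b or blue_14 b and with only the libraries compared (adjusted p 0.0872), and its exons also overlap an antisense gene. PPM1D, the phosphatase WIP1 that switches off p53 signalling, ranged from 5.39 to 8.48 CPM, and RPS27L from 149 to 210 CPM. RPS27L reads may be shared with its paralogue RPS27.

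Of the remaining targets, SUSD6 had 34.2 and 29.1 CPM in blue_3 against 25.5 and 26.6 in dark_3, 41.7 and 50.6 CPM in blue_14 against 45 and 39.1 in dark_14, and 39.6 and 36.9 CPM in blue_42 against 33.6 and 35.5 in dark_42. It was higher by 0.67 (SE 0.14) and 0.40 (SE 0.14) in dark_14 and dark_42 against dark_3, and by 0.52 (SE 0.15) in blue_14 against blue_3. The dark_14 call was lost without dark_3 a or dark_14 a, the dark_42 call held in 3 of the 12 fits without 1 library and the blue_14 call in 5. RLE scaling, DESeq2 and no filter also ended the dark_42 call (adjusted p 0.0539, 0.172 and 0.0709), and DESeq2 and only the libraries compared the blue_14 call. BLOC1S2, a subunit of a lysosome-related organelle complex, had 50.3 and 45.7 CPM in blue_3 against 49.1 and 47.1 in dark_3, 50.3 and 36.8 CPM in blue_14 against 40.1 and 47.8 in dark_14, and 41.3 and 37.9 CPM in blue_42 against 39.3 and 31.3 in dark_42. It was lower by 0.44 (SE 0.15, adjusted p 0.0389) in dark_42 against dark_3, a call lost without dark_3 a, dark_3 b or dark_42 b and with DESeq2. GDF15 had 1.32 and 0.648 CPM in blue_3 against 0.951 and 1.44 in dark_3, 3.16 and 5.25 CPM in blue_14 against 3.72 and 1.92 in dark_14, and 1.81 and 4.37 CPM in blue_42 against 2.05 and 4.16 in dark_42. At this level 3 counts in the smallest library are worth 1.43 CPM. Every later library was above every library of the 3 series, and the log2 differences were 1.07 (SE 0.60) and 1.35 (SE 0.54) in dark_14 and dark_42 against dark_3, and 1.96 (SE 0.64) and 1.60 (SE 0.56) in blue_14 and blue_42 against blue_3. That of blue_14 was the highest estimate of any member in its comparison. None was called, with adjusted p-values of 0.255, 0.092, 0.073 and 0.0863. ZMAT3, an RNA-binding protein of p53 tumour suppression, ranged from 22.0 to 33.4 CPM.

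None of the 4 repair genes and none of the 5 metabolic and redox genes was called in any comparison between series. Over all genes 29.5% were called in at least 1, and these counts by role were not tested. DDB2 ranged from 64.8 to 92.8 CPM, XPC from 29.9 to 42.3, RRM2B, a ribonucleotide reductase subunit, from 8.74 to 12.1, and POLH, the polymerase that copies past ultraviolet damage, from 3.72 to 9.27. SESN1 ranged from 4.73 to 9.07 CPM, TIGAR, a regulator of glycolysis, from 5.16 to 9.55, TP53I3, a quinone oxidoreductase, from 3.34 to 8.59, and FDXR from 21.5 to 29.5. Exons of XPC, POLH and TP53I3 also overlap antisense genes with counts, so their values are uncertain in the same way as those of FAS. PHLDA3, an inhibitor of AKT, ranged from 59.0 to 85.3 CPM. Of the 33 members, 10 had a median under 10 CPM, where the errors are widest.

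The dark and irradiated comparisons between series share no library, so their values can be set side by side. Of the members higher in dark_42 against dark_3, 5 were also higher in blue_42 against blue_3, 100% of the 5 called there and 71.4% of the 7 called in the dark cells. These were BBC3, PMAIP1, FAS, TNFRSF10B and CCNG1. The same shares over all genes were 68.6% and 31.8%. Of the lower members PLK2 and TRIAP1 were shared, 100% of the 2 called in the irradiated and 40% of the 5 called in the dark cells, against 51.8% and 21.2% over all genes. For the 14 series CDKN1A, BBC3, PMAIP1 and SUSD6 were higher in both, 80% of the 5 called in the irradiated and 66.7% of the 6 called in the dark cells, against 62.9% and 28.1% over all genes. PLK2 was lower in both, 50% of the 2 called in each, against 39.7% and 22.4%. Across the 33 members the log2 differences of the irradiated and dark cells had a Pearson's r of 0.91 (Spearman's rho 0.85) for 42 against 3, of 0.85 (rho 0.76) for 14 against 3 and of 0.41 (rho 0.32) for 42 against 14, given as a description across genes that share libraries. Over all 12878 genes r was 0.6, 0.47 and 0.44. The sign was the same in 28, 28 and 15 of the 33 members, and the same share over all genes was not counted.

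**Figure D4:**
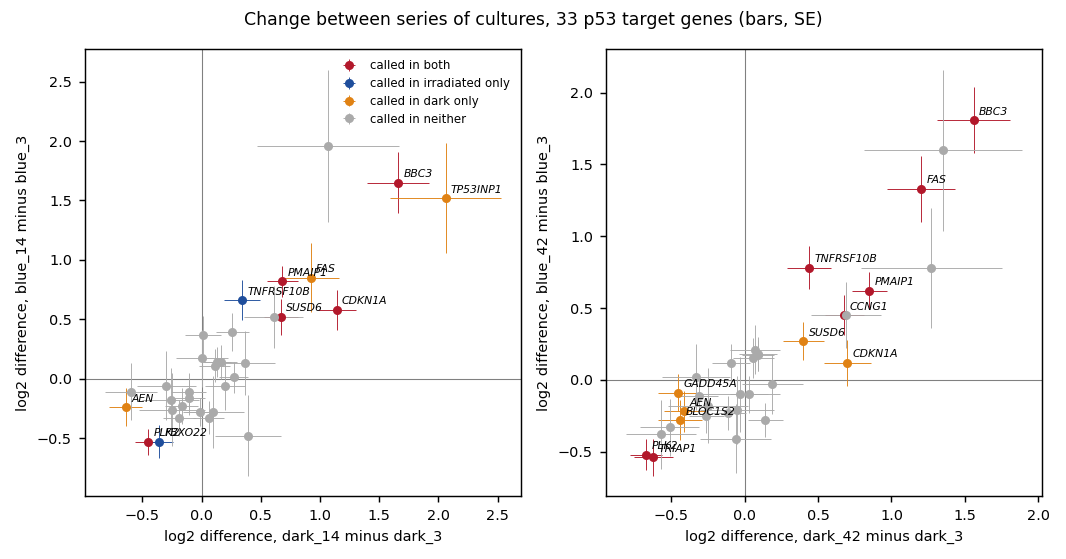
Log2 difference between series in irradiated cells (vertical axis) against that in dark cells (horizontal axis) for the 33 p53 target genes, 14 against 3 irradiations on the left and 42 against 3 on the right, with standard errors as bars. BBC3 lies far from 0 on both axes (1.66 and 1.65 on the left, 1.56 and 1.81 on the right), and PLK2 lies below 0 on both.

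Close promoter matches occurred among members that differed between series and among members that did not. For comparison, 29.5% of all genes were called in at least 1 comparison between series. Of the 10 members with at most 3 mismatches, 3 were called in a comparison between series (FAS and PMAIP1 higher, AEN lower). Of the 16 with a window and more mismatches, 7 were called (BBC3, CCNG1, CDKN1A and SUSD6 higher, BLOC1S2, PLK2 and TRIAP1 lower). CDKN1A and BBC3 had 5 mismatches at their best match in the window. A match is only a run of letters in 300 bases, and its absence says nothing of elements elsewhere in the gene.

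Genes outside the list changed between series as well. Of the 41 other p53 targets 9 were higher and 1 lower in dark_14 against dark_3 (8.11% and 4.61% of all genes), and 7 higher and 5 lower in dark_42 against dark_3 (9.47% and 8.26%). In the irradiated cells 6 were higher and 1 lower in blue_14 (3.62% and 2.6%), and 4 higher and 5 lower in blue_42 (4.4% and 3.39%), against blue_3. Between the later series, 1 was higher (1.81%) and 6 lower (5.23%) in dark_42 against dark_14. In blue_42 against blue_14, 0 were higher (0.0854%) and 1 lower (0.155%). Of the 40 cell cycle genes lowered through p21 and DREAM, 15 fell (4.61% of all genes) and 0 rose in dark_14 against dark_3, with a median log2 difference of -0.406 against 0.019 for all genes. In dark_42 against dark_3 10 fell (8.26%) and 0 rose. In blue_14 and blue_42 against blue_3, 5 and 2 fell (2.6% and 3.39%) and 0 rose. Between the later series the cell cycle genes mostly went up in the dark cells. In dark_42 against dark_14, 5 rose (1.81%) and 2 fell (5.23%), with a median of 0.173 against 0.013 for all genes. In blue_42 against blue_14, 0 were called (0.241%). Of the 17 tested ATF4 and CHOP genes, 0 were higher (8.11%) and 2 lower (4.61%) in dark_14 against dark_3. In dark_42 against dark_3, 2 were higher (9.47%) and 2 lower (8.26%). In blue_14 against blue_3, 2 were higher (3.62%) and 0 lower (2.6%). In blue_42 against blue_3, 1 was higher (4.4%) and 2 lower (3.39%). In dark_42 against dark_14, 0 were higher (1.81%) and 1 lower (5.23%). TP63 rose in blue_14 against blue_3 (0.86, SE 0.15, adjusted p 0.00181) and in blue_42 against blue_3 (0.49, SE 0.14, adjusted p 0.0328), the second call being lost without dark_3 a, dark_3 b, blue_3 b, blue_42 a or blue_42 b and with DESeq2, while in dark_14 and dark_42 against dark_3 its differences of 0.23 and 0.32 were not called.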

How the data were processed

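The authors deposited whole-number read counts per gene for 12 libraries made with a 3' tag kit (QuantSeq FWD) from total RNA, per the labels' protocols. STAR, featureCounts and the GRCh38 build are named in the submitters' processing notes, without versions. Strand setting, annotation and molecular identifiers are not named there.

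Groups came from the sample titles. A filterByExpr step (minimum count 10) kept 12878 genes, which were scaled by TMM and fitted with edgeR 4.0.16 in R 4.3.3 by a robust quasi-likelihood model with a mean for each of the 6 groups and 6 residual degrees of freedom. All p-values are two-sided, with Benjamini-Hochberg adjustment across the 12878 genes, and called means an adjusted p under 0.05. Comparisons were blue against dark after 3, 14 and 42 irradiations, their differences and average, and each pair of series within dark and within irradiated cells. Standard errors were derived from the test statistic, and 95% intervals used 2.45 times the SE. CPM are counts scaled to a common TMM-adjusted library size, and 3 counts equal 0.364 to 1.43 CPM, which covers counting error only. The common biological coefficient of variation was 9.41%. The scripts were tested on simulated data.

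The members and lists were chosen with earlier results of these data known. Full values are given for each member called in a comparison and for the 3 smallest p-values of each blue against dark comparison. From the other lists TP63, TP73, MDM4 and each gene called for light or for a difference of light effects were named. Another gene that the rule takes is not reported here, while counts of genes include it. Libraries a and b differed by more than sampling noise (chi-square per degree of freedom 1.64 in dark_3 and 5.05 to 8.57 elsewhere), so neither is a copy of the other and each counted as 1 library of its group, which does not show that they are separate cultures. Promoters came from RefSeq on GRCh38.p14, and gene positions from GENCODE release 29 on GRCh38, matched by identifier for all 33 members. Alternatives were RLE scaling, DESeq2 1.42.0, no filter, a filter at 5 CPM, the letter as a replicate block, estimation that was not robust, fits restricted to the libraries compared or without the 14-irradiation libraries, and leaving out each library.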

Additional observations from a re-analysis of the deposited data

Results flagged for a closer look

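ATF3, a stress-induced transcription factor on the list of ATF4 and CHOP genes and not one of the 33 members, had a light effect that differed between irradiation numbers. The 42-irradiation effect minus the 3-irradiation effect was -1.19 on the log2 scale (SE 0.22), with an adjusted p of 0.0193 from edgeR. ATF3 had 30.9 and 32.7 CPM in blue_3 against 21.1 and 18.6 in dark_3, 25.3 and 37.2 CPM in blue_14 against 23.8 and 21.3 in dark_14, and 19.6 and 23.8 CPM in blue_42 against 31.0 and 31.0 in dark_42. Neither effect passed on its own, with adjusted p-values of 0.267 after 3 irradiations and 0.113 after 42. Of the 12 fits that left out 1 library, 7 kept the call, and it was lost without dark_3 a, dark_3 b, blue_3 b, blue_42 a or blue_42 b (adjusted p of up to 0.144).

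Neuronal markers that are not members also had light effects that differed between irradiation numbers. The 14-irradiation effect minus the 3-irradiation effect was -3.44 (SE 0.44) for SYT1, -4.88 (SE 0.78) for CELF4, -4.55 (SE 0.80) for NEFM and -1.27 (SE 0.22) for MAP2 on the log2 scale, with adjusted p-values of 0.00183, 0.0211, 0.0336 and 0.0336 from edgeR. For SYT1 the 42-irradiation effect minus the 3-irradiation effect was -2.61 (SE 0.49, adjusted p 0.0201). MAP2 had 32.5 and 36.4 CPM in blue_3 against 21.6 and 21 in dark_3, 20.4 and 20.1 CPM in blue_14 against 29.5 and 30.7 in dark_14, and 16.5 and 17.1 CPM in blue_42 against 16.5 and 13.4 in dark_42. NEFM had 3.71 and 6.15 CPM in blue_3 against 0.634 and 1.01 in dark_3, 1.44 and 0.955 CPM in blue_14 against 6.87 and 4.09 in dark_14, and 1.29 and 0.971 CPM in blue_42 against 1.28 and 0.26 in dark_42. Its levels in blue_14 b and dark_42 b, and those of CELF4 in both dark_3 libraries, stand for fewer than 3 counts. The sizes of the NEFM and CELF4 differences are therefore uncertain. Of the 12 fits that left out 1 library, SYT1 kept its call for 14 minus 3 in 12 and for 42 minus 3 in 7, CELF4 in 6, NEFM in 4 and MAP2 in 3 (adjusted p of up to 0.199).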

How the results depend on the processing

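The count of members called for light was 0 after 3, 14 and 42 irradiations under every alternative run, including the replicate block (0 members) and each fit without 1 library, in which a lone library is assumed to vary like the other groups. The members' median light effect stayed between -0.026 and 0.047, -0.045 and 0.045, and 0.059 and 0.096 after 3, 14 and 42 irradiations. The median over all genes stayed between -0.002 and 0.016, -0.018 and 0.001, and -0.007 and 0.006. Depth limits low members such as GDF15 and TP53INP1.

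Between series, the number of members called ran over the fits without 1 library from 3 to 9 in dark_14 against dark_3, 5 to 13 in dark_42 against dark_3, 1 to 2 in dark_42 against dark_14, 2 to 9 in blue_14 against blue_3 and 4 to 7 in blue_42 against blue_3. DESeq2 gave 7 in dark_42 against dark_3, no filter 2 in dark_42 against dark_14, and only the libraries compared 4 in blue_14 against blue_3. The cause was not tested. The letters a and b did not pair the libraries across all groups, since correlations of their differences between groups ran from -0.44 to 0.41 and 4 of 15 were above 0.1. Between the dark and irradiated groups of a series the correlation was 0.09 for 3, -0.29 for 14 and 0.41 for 42 irradiations. Whether a and b were paired within a series was not tested. The replicate block fits a single shift of the letter over all series, so it does not model such pairs. With the replicate block, 8, 11, 6 and 6 members were called in dark_14 and dark_42 against dark_3 and in blue_14 and blue_42 against blue_3. The calls lost were SUSD6 in dark_42 against dark_3 (adjusted p 0.0551), CDKN1A in blue_14 against blue_3 (0.0581) and CCNG1 in blue_42 against blue_3 (0.0551).

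Light effects of p53 family genes near 0 changed sign over the fits without 1 library. TP63 ran from -0.32 to 0.12, TP73 from -0.24 to 0.22 and MDM4 from -0.10 to 0.25 after 3 irradiations. After 42 irradiations TP73 ran from -0.30 to 0.67 and MDM4 from -0.17 to 0.18. Of 1286 refits of 66 values of named genes, 1104 kept direction and call, 174 lost the call, 0 gained it and 8 changed sign. Many of these refits left out a library outside the comparison at hand, which hardly moves its log2 difference. Many of the values were named because they were called, and such values cannot gain a call. The pooled counts therefore do not measure how steady a single call was.

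Counts over all genes moved more. For light they ran from 0 to 54 after 3 irradiations (2 as reported), 0 to 14 after 14 (0) and 24 to 420 after 42 (158), the upper ends with no filter. For the differences of light effects and the average, the most with no filter were 288 (56), 80 (7), 115 (5) and 87 (9). Between series, only the libraries compared gave 2651 (1638) in dark_14 against dark_3, 443 (907) in dark_42 against dark_14 and 503 (801) in blue_14 against blue_3. DESeq2 gave 1522 (2284) in dark_42 against dark_3 and 577 (1002) in blue_42 against blue_3, and no filter gave 298 (31) in blue_42 against blue_14. In each comparison between series, the fewest calls came from leaving out a compared library, below every other alternative. The shares of all genes given beside the members rest on these counts and vary with them.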
